A study of Sus scrofa with 16 samples.

Results

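Transcript levels of filamentous pig conceptuses, over 100 mm long, were compared with those of tubular conceptuses, 13 to 45 mm long, across every probe of a porcine embryonic cDNA macroarray. The comparison used 8 of the 16 samples of the series, 4 tubular and 4 filamentous, which their titles name by stage; the question was what differed at this last recorded step of elongation. The other 8 samples were small spherical (1 to 5 mm) and large spherical (6 to 11 mm) conceptuses, 4 of each, and served here to estimate the spread and to show where a level stood earlier. Each sample was amplified RNA of whole pig (Sus scrofa) embryos turned into a target carrying phosphorus-32 and bound to 1 membrane, and the labels name no treatment or genetic change. The labels give no age, breed, litter or number of embryos per sample, and nothing says that the samples of a stage came from separate litters, so every p-value reflects the spread among these samples alone, which may be technical. In RNA of whole conceptuses, fewer cells of a type and less RNA per cell cannot be told apart.

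A pig conceptus passes from a sphere through a tube to a long thread before it attaches to the uterus. Its outer epithelium, the trophectoderm, lengthens over an inner layer of extraembryonic endoderm derived from the hypoblast, and the small embryonic disc forms mesoderm in the same period. The elongating trophectoderm makes oestrogens from cholesterol, the known signal of pregnancy in the sow, and also secretes cytokines and interferons.

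No probe passed the test. Of 1014 probes tested with limma, 0 had an adjusted p under 0.05 (0%), and the smallest adjusted p was 0.994. At an unadjusted p under 0.05 there were 34 probes (3.35%), where 50.7 would be met by chance if no probe differed. Of these, 26 read higher in the filamentous stage (2.56% of all probes) and 8 read lower (0.789%). The split depended on the scaling, with 18 higher and 13 lower after each array was centred on its median, 24 and 13 after quantile normalization, and 23 and 15 after cyclic loess. The 4 arrays of each stage did not overlap for 30 probes (2.96%), 20 with the filamentous arrays all higher (1.97%) and 10 with them all lower (0.986%). With 4 arrays against 4, chance alone would separate a share of this order. A lack of overlap below is therefore a description and does not mark a gene as changed. What follows is therefore a description of levels, and no gene is called changed. Differences are given as log2 ± SE, mostly with the 95% interval, which leaves out 0 where the unadjusted p is under 0.05; every limma adjusted p was 0.994 or higher.

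**Figure D1:**
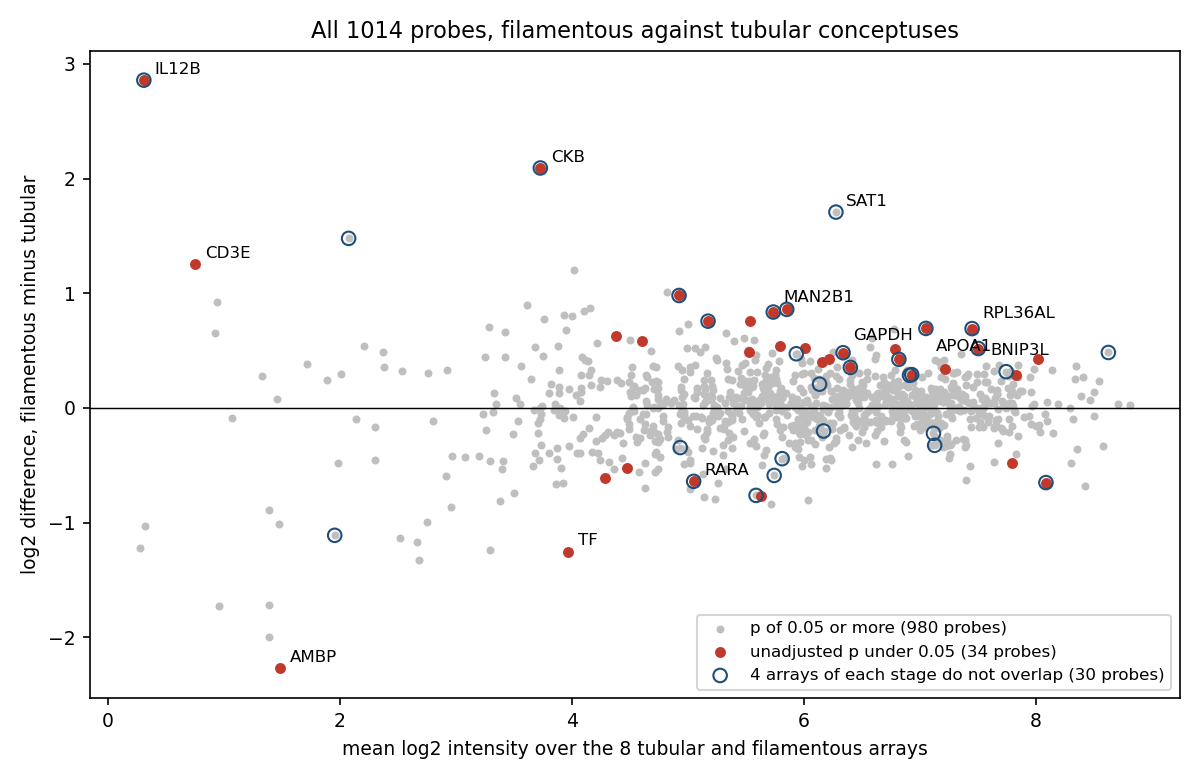
Difference between filamentous and tubular conceptuses (vertical, log2 of intensity) against mean log2 intensity over the 8 arrays (horizontal) for all 1014 probes. Red points are the 34 probes with unadjusted p under 0.05 and circles mark the 30 whose 4 arrays of each stage do not overlap; the widest differences lie at the dim end, at left.

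The spread between arrays set what could be seen. The median SD of log2 intensity was 0.306 over the tubular and 0.338 over the filamentous arrays, against a median absolute difference between stages of 0.167. A probe of median standard error (0.26) would have needed a log2 difference of 1.46, or 2.76-fold, to pass if it alone were to pass. In the dimmest 25% of probes this was 4.33-fold and in the brightest 25% it was 2.28-fold. Spearman correlations between arrays over all probes were 0.851 to 0.96 within the tubular stage, 0.881 to 0.95 within the filamentous stage and 0.861 to 0.966 between the stages. Array medians of the 8 arrays lay between 65.7 and 69.4 intensity units. The arrays numbered 1 were often at the far end: filamentous array 1 was the highest of its stage for 12 of the 26 probes that read higher at unadjusted p under 0.05, and tubular array 1 was the lowest of its stage for 12. Without filamentous array 1, 13 of the 34 probes still had an unadjusted p under 0.05. Leaving out any other of the 8 arrays also shortened the list, to between 16 (filamentous array 4) and 24 (tubular array 3). All 34 kept their sign, which is likely for probes picked by p from these same arrays.

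Genes of glucose use had positive differences. Each of the 6 measured genes listed for glucose uptake and glycolysis, malate dehydrogenase MDH1 among them, had a higher mean in the filamentous stage. Their median log2 difference was 0.28 where that of all probes tested was 0.02. An unadjusted p under 0.05 was met by 2 of the 6 and by 3.35% of all probes, the share to set beside the later counts. Over all 1014 probes, 549 were higher and 465 lower, the split against which this and the later counts of list members stand. Without tubular array 1 the median of the 6 listed genes was 0.48. GAPDH, a glycolytic enzyme, read 68.3, 70.5, 63.9 and 71.4 on tubular arrays 1 to 4 and 86.0, 98.3, 86.9 and 113 on filamentous arrays 1 to 4. Every filamentous array lay above every tubular array. The difference was 0.48 ± 0.14 (log2 ± SE; 95% interval 0.19 to 0.77, 1.40-fold). Tubular was the lowest of the 4 stages for GAPDH: the mean intensities were 88.4 ± 7.46 (SD, n = 4) in the small spherical, 79.2 ± 5.69 in the large spherical, 68.5 ± 3.37 in the tubular and 96.1 ± 12.8 in the filamentous stage.

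ENO1, the glycolytic enzyme enolase, read 72.8, 64.2, 53.1 and 60.0 on the tubular and 80.9, 92.6, 71.7 and 84.3 on the filamentous arrays. Only tubular array 1 reached into the filamentous range, just above the lowest filamentous array. The difference was 0.40 ± 0.18 (0.03 to 0.78), and unlike GAPDH the earlier stages were level with tubular, at 59.8 ± 7.09 and 61.1 ± 13.1. LDHB, a lactate dehydrogenase subunit, read 189, 84.0, 136 and 123 on the tubular and 243, 168, 132 and 159 on the filamentous arrays, with overlap (0.42 ± 0.24, -0.09 to 0.93, 0.22 without tubular array 2). The glucose transporter SLC2A1 differed by 0.16 ± 0.18 (-0.22 to 0.54). The transporter SLC2A3 differed by 0.16 ± 0.45 on its brighter probe and by -0.42 on its other probe, so its sign was not settled. MDH1, malate dehydrogenase, which is not itself a glycolytic enzyme, differed by 0.10 ± 0.25.

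BNIP3L, a mitochondrial receptor for mitophagy, read 129, 175, 146 and 160.3 on the tubular and 209, 225, 198 and 238 on the filamentous arrays. The stages did not overlap, and the difference was 0.52 ± 0.16 (0.18 to 0.86, 1.43-fold). The mean intensity of BNIP3L was 214 ± 25.2 in small and 200.1 ± 33.3 in large spherical conceptuses, 153 ± 19.4 in the tubular and 218 ± 17.8 in the filamentous stage, so that the tubular mean was the lowest. By mean log2 intensity, tubular was the lowest stage for 273 of all 1014 probes. It was so for 13 of the 26 that read higher at unadjusted p under 0.05. Picking probes with filamentous above tubular itself favours a low tubular mean. GAPDH and BNIP3L had an unadjusted p under 0.05 in all 19 alternative settings. Both had among the smallest p on these same arrays, which the settings reuse, so this was likely from the start. Of the list of oxidative stress and mitophagy, 4 of 7 members were higher and 3 lower, with BNIP3L alone at unadjusted p under 0.05. The glutathione peroxidases GPX6 and GPX1 differed by 0.69 ± 0.33 (-0.01 to 1.39) and 0.41 ± 0.34, which became 0.41 and 0.058 without tubular array 1. The superoxide dismutase SOD1 differed by -0.27 ± 0.21.

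**Figure D2:**
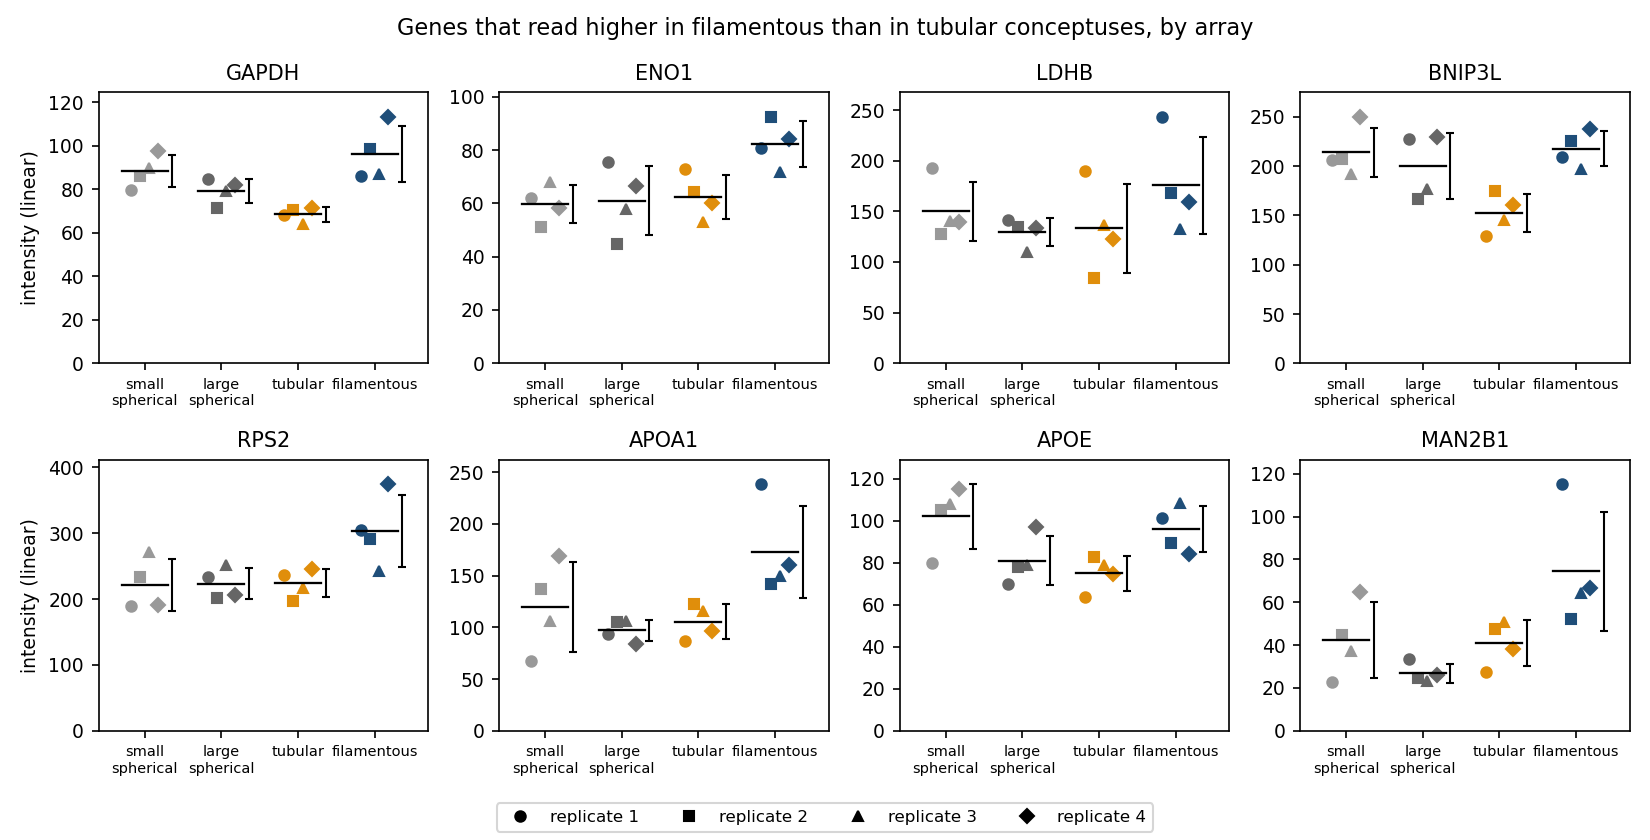
Intensity (linear, vertical) on each of the 16 arrays for 8 genes that read higher in filamentous conceptuses, by stage (horizontal); symbols give the replicate number, horizontal bars the mean and whiskers the SD of 4 arrays. GAPDH, BNIP3L, APOA1, APOE and MAN2B1 show no overlap between tubular and filamentous, and GAPDH and BNIP3L are lowest in the tubular stage.

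Genes for secreted proteins of the extraembryonic endoderm did not move one way. The hypoblast and yolk sac list had 5 higher and 3 lower members of 8 and a median of 0.28. Unadjusted p was under 0.05 for 2 of the 8, of opposite sign, and for 3.35% of all probes. Without tubular array 1 the median was 0.15. APOA1, the main protein of high-density lipoprotein, read 86.4, 123, 116 and 96.7 on the tubular and 238, 142, 149.8 and 160.0 on the filamentous arrays. All filamentous arrays were above all tubular arrays, and filamentous array 1 stood far above the rest. The difference was 0.69 ± 0.25 (0.16 to 1.23, 1.62-fold), or 0.53 without filamentous array 1. A dim APOA1 probe also did not overlap, with a difference of 1.48 ± 0.77, but it lay at the lowest value of tubular array 1 and differed by 0.50 without that array. APOE, another apolipoprotein, read 63.7, 83.0, 79.0 and 74.7 against 101, 89.7, 108 and 84.3, again without overlap (0.35 ± 0.16, 0.01 to 0.70). Leaving out 1 array at a time gave 0.28 (tubular array 1) to 0.41 (filamentous array 4). With the arrays numbered 1 left out of all stages it was 0.25. APOE averaged 102 ± 15.4 in small spherical conceptuses, above its filamentous mean of 95.9 ± 10.9. APOE is not in the hypoblast list, and it was singled out after its values were seen.

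TF, the iron carrier transferrin, ran the other way. It read 38.8, 16.3, 22.8 and 23.3 on the tubular and 3.94, 14.6, 16.3 and 11.2 on the filamentous arrays. The stages met only where tubular array 2 was level with filamentous array 3. The difference was -1.25 ± 0.44 (-2.19 to -0.31), the small and large spherical means were 26.6 ± 6.31 and 24.4 ± 13.0, and without filamentous array 1, the dimmest, it was -0.80. With the arrays numbered 1 left out of all stages, TF differed by -0.57 and APOA1 by 0.44. RBP4, the carrier of retinol, differed by 0.48 ± 0.34 (-0.25 to 1.20), and its other probes by 0.29 ± 0.62 and 0.54 ± 0.41. The fetal plasma proteins AHSG and AFP differed by 0.27 ± 0.17 and -0.36 ± 0.24, the matrix glycoprotein FN1 by 0.30 ± 0.20, APOA2 by 0.36 ± 0.25 and the protease inhibitor SERPINA1 by -0.23 ± 0.36.

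AMBP, a plasma protein precursor, read 4.86, 12.1, 3.40 and 7.03 on the tubular and 0.517, 0.12, 3.73 and 11.2 on the filamentous arrays. Its low mean rested on filamentous arrays 1 and 2, where it lay at the lowest value of the array, which 8 probes share on each. The difference of -2.27 ± 1.03 (-4.46 to -0.08) became -1.14 without filamentous array 2 and -0.32 when 10 units were added before the log.

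RARA, a nuclear receptor for retinoic acid, read 49.0, 41.3, 37.9 and 38.0 on the tubular and 15.9, 34.8, 26.4 and 33.9 on the filamentous arrays. Every filamentous array was below every tubular array, with array 1 the lowest. The difference was -0.64 ± 0.28 (-1.23 to -0.05), and -0.39 without filamentous array 1. The related receptor RARB differed by 0.29 ± 0.32 and RXRB by -0.11 ± 0.73. In the list of prostaglandin, steroid and retinoid receptors, 5 of 8 members were higher, 3 lower and the median was 0.03. The oestrogen receptor ESR2 differed by 0.25 ± 0.57 and PTGES, a prostaglandin E synthase, by 0.05 ± 0.27 (-0.53 to 0.63).

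**Figure D3:**
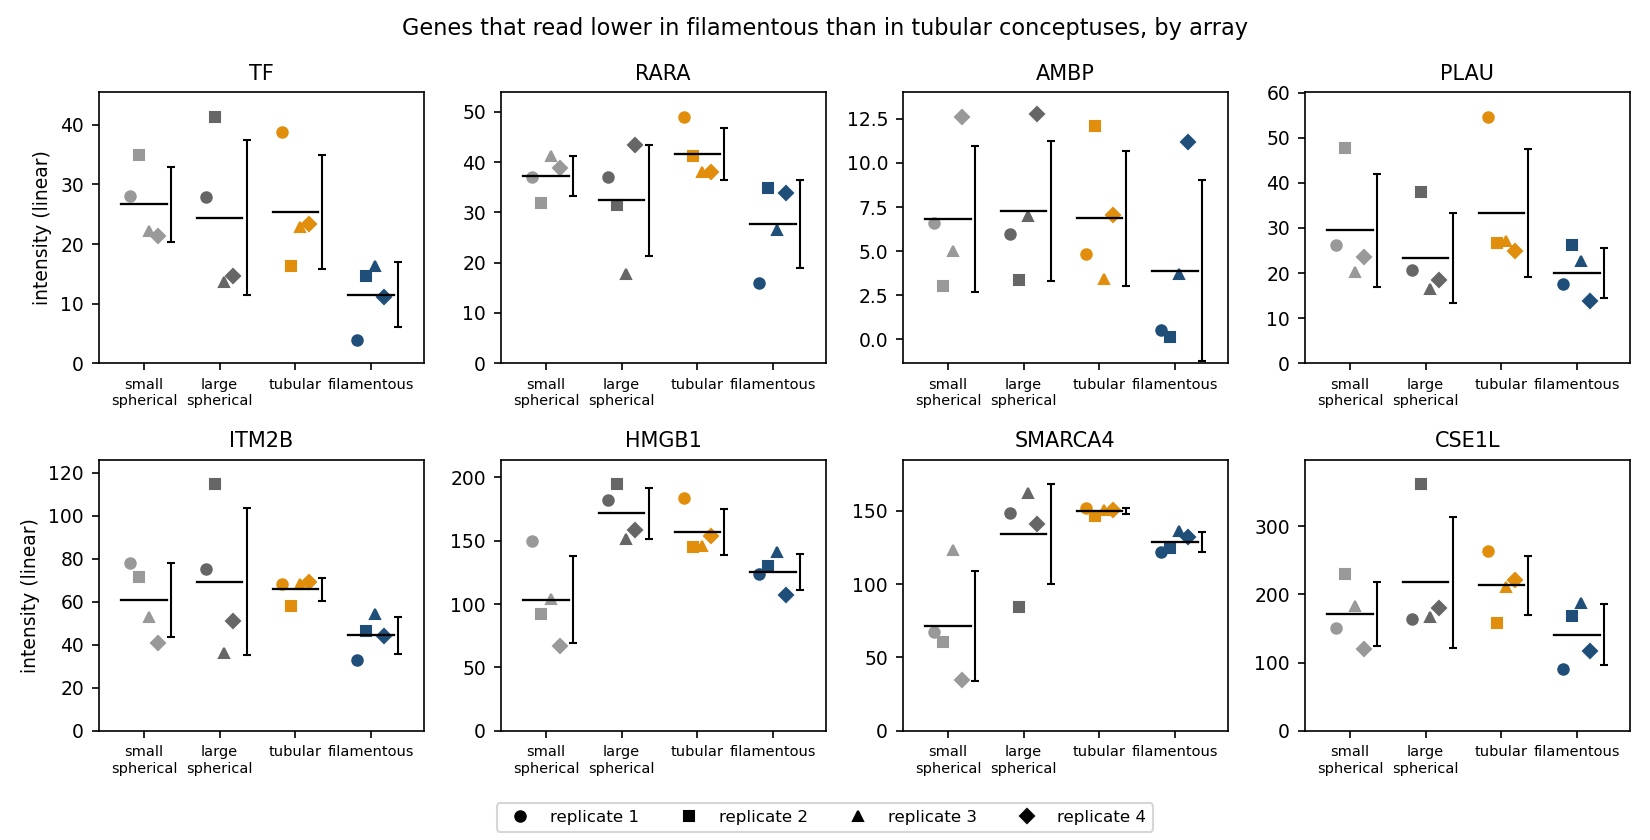
Intensity (linear, vertical) on each of the 16 arrays for 8 genes that read lower in filamentous conceptuses, by stage (horizontal); symbols give the replicate number, horizontal bars the mean and whiskers the SD of 4 arrays. RARA, ITM2B, HMGB1 and SMARCA4 show no overlap between tubular and filamentous, the AMBP mean rests on 2 arrays near 0, and its whisker runs below 0 only because the SD exceeds the mean.

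Steroid synthesis genes had small differences beside their intervals. Of 9 measured members, 4 were higher and 5 lower, with a median of -0.06 and 0 at unadjusted p under 0.05. STAR, which delivers cholesterol to the first enzyme of the pathway, read 142, 187, 152 and 160.3 on the tubular and 113, 168, 193 and 139.8 on the filamentous arrays. The ranges overlapped throughout, and the difference was -0.08 ± 0.23 (-0.58 to 0.41); in small spherical conceptuses STAR averaged 40.0 ± 7.89. Aromatase, CYP19A1, which forms oestrogen, read 249, 224, 161 and 160.3 on the tubular and 167, 249, 210.3 and 233 on the filamentous arrays (0.13 ± 0.18, -0.27 to 0.52). The side-chain cleavage enzyme CYP11A1 differed by 0.07 ± 0.31 (-0.59 to 0.73) and the hydroxylase and lyase CYP17A1 by 0.16 ± 0.76 (-1.45 to 1.78). Cytochrome b5 genes, whose products donate electrons, differed by -0.06 ± 0.18 (CYB5A) and 0.33 ± 0.39 (CYB5B). The sterol carrier SCP2 differed by -0.26 ± 0.34 and HSD17B4, a peroxisomal dehydrogenase, by -0.23 ± 0.27. The intervals of CYP19A1, CYP11A1 and CYP17A1 each include the 0.48 seen for GAPDH.

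Growth factor genes were mixed, with 4 of 11 members higher, 7 lower and 0 at unadjusted p under 0.05. TGFB1, a ligand of the TGF beta family, read 45.6, 39.2, 29.3 and 33.1 on the tubular and 67.2, 52.1, 41.5 and 64.2 on the filamentous arrays. Only the lowest filamentous array fell within the tubular range (0.61 ± 0.32, -0.07 to 1.28). TGFB3, a ligand of the same family, read 72.8, 70.5, 68.2 and 50.2 on the tubular and 14.2, 86.8, 99.5 and 86.9 on the filamentous arrays. Filamentous arrays 2, 3 and 4 were above every tubular array and array 1 far below them all. The TGFB3 difference was therefore -0.18 ± 0.62 with all arrays and 0.49 without filamentous array 1. SMAD4, the shared signal carrier of the family, differed by -0.19 ± 0.15 and the growth factor IGF2, dim on all arrays, by -1.01 ± 0.77, or -0.37 without filamentous array 1. VEGFA, the vascular growth factor, differed by -0.53 ± 0.45 and by 0.07 without tubular array 1, where it read 306.

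Markers of trophectoderm did not move one way. KRT18, an epithelial keratin, read 311, 247, 268 and 274 on the tubular and 238, 312, 198 and 253 on the filamentous arrays. The arrays of the stages overlapped (-0.15 ± 0.18, -0.53 to 0.23). The other keratins differed by 0.33 ± 0.23 (KRT19) and -0.03 ± 0.25 (KRT8), and PLAC1, a placental protein, by 0.09 ± 0.28. The transcription factor GCM1 was dim, between 0.12 and 18.8, and differed by -1.998 ± 1.195 (-4.54 to 0.55). Its 0.12 was the lowest value of filamentous array 2. The GCM1 difference was -0.85 without that array and -0.24 when 10 units were added before the log. In all, 3 of 8 trophectoderm genes were higher, 5 lower and 0 at unadjusted p under 0.05. Of other cell types, VIM, a mesenchymal filament protein, read 27.5, 41.3, 59.5 and 33.1 on the tubular and 86.0, 40.6, 46.6 and 71.7 on the filamentous arrays (0.60 ± 0.28, -0.0031 to 1.19, 0.41 without filamentous array 1). VIM differed by 0.24 when the arrays numbered 1 were left out of all stages. The mesoderm and vascular list had 4 higher and 1 lower member of 5 and 0 at unadjusted p under 0.05. Its median was 0.13, but -0.15 with the arrays numbered 1 left out and 0.34 without the dimmest 25% of probes. The vascular receptor KDR differed by 0.27 ± 0.24 and the endothelial genes PECAM1 and CDH5 by 0.09 ± 0.19 and -0.26 ± 0.22. DPPA5, the single measured epiblast marker, differed by 0.78 ± 0.51 (-0.32 to 1.87), or 0.29 without tubular array 4.

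Only 1 marker each of maternal blood and of endometrium was measured, and both were near the bottom of the scale. CD3E, a T cell receptor chain, read 0.33, 2.08, 1.24 and 1.63 on the tubular and 1.71, 2.89, 2.52 and 3.63 on the filamentous arrays. The stages overlapped, and the difference of 1.26 ± 0.47 (0.26 to 2.26) was 0.68 without tubular array 1, where CD3E lay at the lowest value of the array. It was 0.16 when 10 units were added before the log. The progesterone receptor PGR differed by 0.07 ± 0.80. The part of maternal cells in the other results was not tested. IL12B, a cytokine subunit, had the smallest p of all probes and the same limit: it read 0.33, 1.69, 0.157 and 0.509 on the tubular and 1.71, 2.89, 2.52 and 9.93 on the filamentous arrays. Tubular arrays 1, 3 and 4 had it at the lowest value of the array. The difference was 2.86 ± 0.70 (1.36 to 4.35), and 0.39 when 10 units were added before the log. IL12B and CD3E had identical values on tubular array 1 and on filamentous arrays 1, 2 and 3, so these low readings do not tell the genes apart.

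Among the 17 cytokine and interferon genes, 8 were higher and 9 lower, and IL12B alone had an unadjusted p under 0.05. Interferon gamma, IFNG, which the pig trophectoderm secretes, read 184, 97.5, 159.9 and 115 on the tubular and 136, 119, 129.7 and 117 on the filamentous arrays. The filamentous arrays lay inside the tubular range (-0.11 ± 0.23, -0.60 to 0.38), and a second probe had the other sign, 0.30 ± 0.55. IL18 differed by 0.46 ± 0.31, or 0.28 without filamentous array 1. IL4 was dim and differed by -1.72 ± 1.06, which was -0.53 without filamentous array 2. IL2, also dim, differed by -0.89 ± 0.61, and by -0.053 without tubular array 2, where it read 20.4.

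**Figure D4:**
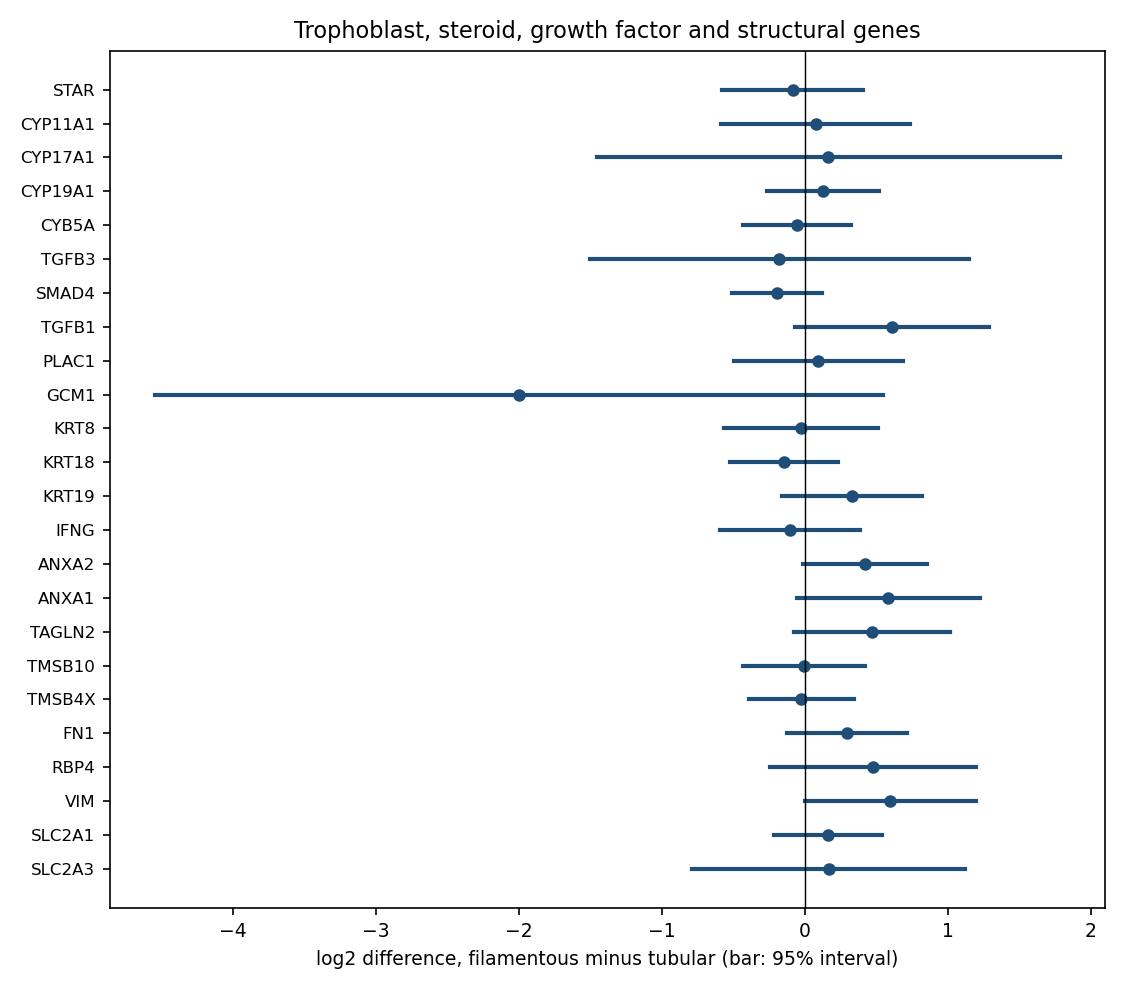
Log2 difference, filamentous minus tubular (horizontal, points), with its 95% interval (bars) for 24 genes of trophoblast, steroid synthesis, growth factors and cell structure (vertical). All 24 intervals include 0, and that of GCM1 is the widest.

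Genes of protein synthesis mostly had positive differences. Of 23 cytosolic ribosomal protein genes, 16 were higher and 7 lower, with a median of 0.18. Unadjusted p was under 0.05 for 2 of the 23 and for 3.35% of all probes. RPS2, of the small subunit, read 236, 198, 217 and 245 on the tubular and 304, 292, 243 and 374 on the filamentous arrays. The filamentous array 3 alone lay within the tubular range (0.43 ± 0.17, 0.07 to 0.79). RPL36AL, of the large subunit, read 95.4, 154, 167 and 146 on the tubular and 394, 173, 195 and 183 on the filamentous arrays. The stages did not overlap, but the arrays numbered 1 carried much of the difference. It was 0.69 ± 0.30 with all arrays (0.05 to 1.34) and 0.42 without filamentous array 1. With the arrays numbered 1 left out of all stages it was 0.24. RPL3 and RPSA differed by 0.27 ± 0.15 and 0.30 ± 0.16. Of 15 translation factors 11 were higher, 4 lower and 0 had an unadjusted p under 0.05, with a median of 0.24. EIF3K, an initiation factor subunit, read 50.1, 47.5, 48.7 and 62.5 against 74.1, 63.7, 74.3 and 76.8 without overlap (0.47 ± 0.25, -0.06 to 1.01). The release factor ETF1 differed by 0.68 ± 0.47, or 0.24 without tubular array 1, and the helicases EIF4A3 and EIF4A2 by 0.39 ± 0.30 and 0.29 ± 0.22. Without tubular array 1 the median of the translation factors was 0.10.

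**Figure D5:**
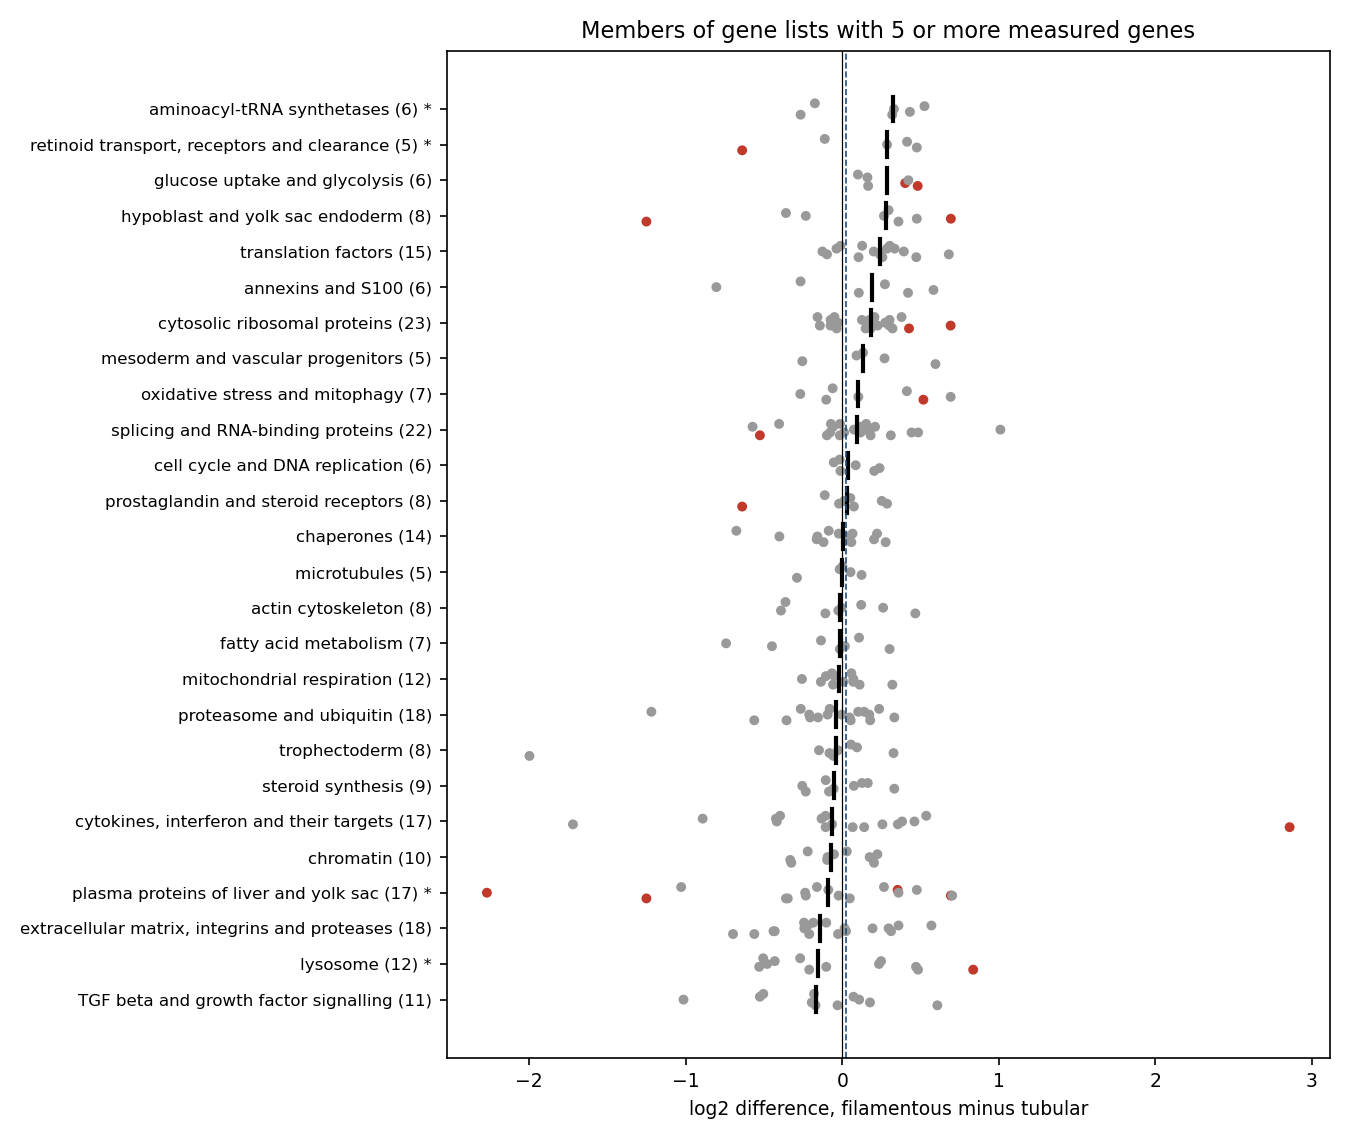
Log2 difference, filamentous minus tubular (horizontal), of each member of 26 gene lists with 5 or more measured genes (vertical, number measured in brackets). Points are genes, red at unadjusted p under 0.05, black bars are list medians, the dashed line is the median of all probes, and an asterisk marks lists written after values were seen; glycolysis and hypoblast medians lie near 0.28 and growth factors at -0.17.

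Annexins, calcium-dependent membrane binders, and S100 proteins differed in sign, with 4 of 6 members higher and 2 lower. ANXA2 read 118, 125, 144 and 102 on the tubular and 201, 116, 161 and 184 on the filamentous arrays. Filamentous arrays 1, 3 and 4 were above every tubular array and array 2 was not (0.42 ± 0.20, -0.01 to 0.85). ANXA2 averaged 83.6 ± 14.5 in small and 103 ± 16.8 in large spherical conceptuses, so its means ran upward over the 4 stages, with 122 ± 17.4 in the tubular and 165 ± 36.9 in the filamentous stage. ANXA1 differed by 0.58 ± 0.30, or 0.31 without filamentous array 1, and calmodulin CALM2 by 0.27 ± 0.22, while S100A1 differed by -0.80 ± 0.44, or -0.43 without filamentous array 1. Among 8 actin genes 3 were higher and 5 lower. The actin binder TAGLN2 read 43.4, 54.8, 61.7 and 51.0 against 61.2, 69.4, 71.7 and 89.4, with the lowest filamentous array just inside the tubular range (0.47 ± 0.26, -0.08 to 1.01). The thymosins TMSB10 and TMSB4X, which hold actin monomers, differed by -0.01 ± 0.20 and -0.03 ± 0.17. Vinculin, VCL, differed by -0.39 ± 0.28, ACTA2 by 0.26 ± 0.27 and ACTG1 by 0.12 ± 0.17. Microtubule genes had differences between -0.29 (DCTN4) and 0.12 (STMN1), with TUBA1A at 0.05 ± 0.15 and DYNLRB1 at -0.02 ± 0.34.

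Of 18 genes for matrix, integrins and proteases, 7 were higher and 11 lower, with a median of -0.14 and 0 at unadjusted p under 0.05. PLAU, the urokinase that activates plasminogen, read 54.7, 26.7, 27.1 and 24.96 on the tubular and 17.6, 26.1, 22.6 and 13.7 on the filamentous arrays. Tubular array 1 was far above the others, and the difference of -0.70 ± 0.34 (-1.42 to 0.02) was -0.43 without it. The lysosomal protease CTSC differed by -0.43 ± 0.26 and the protease inhibitor TIMP1 by 0.57 ± 0.40.

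Other named genes with unadjusted p under 0.05 or near it belonged to no single process. MAN2B1, a lysosomal mannosidase, read 27.5, 47.5, 50.9 and 38.0 on the tubular and 115, 52.1, 64.2 and 66.7 on the filamentous arrays. The stages did not overlap (0.84 ± 0.31, 0.17 to 1.50). The difference was 0.60 without filamentous array 1 and 0.43 with the arrays numbered 1 left out of all stages. CKB, brain-type creatine kinase, read 0.33, 17.3, 18.5 and 15.995 against 27.9, 31.9, 26.4 and 23.8. No arrays overlapped, tubular array 1 lay at the lowest value of its array, and the difference of 2.09 ± 0.93 (0.11 to 4.08) was 0.66 without it. OXSM, of mitochondrial fatty acid synthesis, and KDM1A, a histone demethylase, differed by 0.29 ± 0.13 and 0.48 ± 0.22, with overlap. OXSM differed by 0.21 without tubular array 4. KDM1A differed by 0.27 with the arrays numbered 1 left out of all stages. SAT1, of polyamine breakdown, did not overlap, at 123, 110.1, 2.32 and 108 against 153, 124, 137 and 147. Its difference of 1.71 ± 0.90 was 0.30 without tubular array 3.

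Among genes that read lower, ITM2B, a membrane protein, read 68.3, 58.0, 68.2 and 69.0 on the tubular and 33.0, 46.3, 54.1 and 44.0 on the filamentous arrays. No array of one stage reached the other (-0.59 ± 0.30, -1.23 to 0.05). SMARCA4, a chromatin remodelling ATPase, read 152, 147, 150.2 and 150.5 against 122, 124, 136 and 132, also without overlap. The tubular arrays were tight, yet the difference was small against the spread pooled over the 4 stages (-0.22 ± 0.29). HMGB1, a chromatin protein, read 184, 145, 146 and 154 against 124, 130.1, 141 and 107 on its brighter probe (-0.33 ± 0.21), while its other probe had the opposite sign, 0.65 ± 0.41. The chromatin list had 4 higher and 6 lower members of 10. CSE1L, a nuclear export receptor, differed by -0.63 ± 0.30 and by -0.44 without filamentous array 1. CERS2, a ceramide synthase, differed by -0.71 ± 0.34 and by -0.28 without tubular array 1. LSM14A, an RNA-binding protein of processing bodies, differed by -0.53 ± 0.24 (-1.04 to -0.01). The cap methyltransferase CMTR2 and the peroxisomal protease LONP2 differed by -0.32 ± 0.17 and -0.53 ± 0.28, which were -0.17 for CMTR2 without tubular array 1 and -0.29 for LONP2 without filamentous array 4. The receptor-like protein GPR108 differed by -0.84 ± 0.46, or -0.48 without tubular array 1.

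Household machinery had no common direction. Of 12 genes of mitochondrial respiration 6 were higher and 6 lower, of 14 chaperones 7 and 7, of 18 proteasome and ubiquitin genes 8 and 10, of 6 cell cycle genes 3 and 3, of 7 fatty acid genes 3 and 4 and of 22 splicing genes 13 and 9. Their medians lay between -0.04 and 0.10, and LSM14A was the single member at unadjusted p under 0.05. The respiratory gene UQCR10 differed by 0.32 ± 0.27 and SDHD by -0.14 ± 0.17, the acyl-CoA synthetases ACSL1 and ACSL3 by 0.30 ± 0.21 and -0.45 ± 0.35, and the chaperonin subunit CCT4 by 0.28 ± 0.18. The proliferation genes CENPF, CCNB2 and TOP2A differed by 0.20 ± 0.17, 0.09 ± 0.20 and -0.05 ± 0.23. The RNA helicases DDX39B and DDX1 differed by 0.48 ± 0.25 and 1.01 ± 0.53, the latter 0.33 without tubular array 1.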

How the data were processed

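Per the labels, RNA of whole embryos was amplified, and the radioactive target made from it was bound to membranes spotted with cDNA. The authors deposited a single table of linear intensity values, from 0.12 to 805, with 1015 probes and 16 arrays. No column was left out (0 columns of other samples). Scanning, background subtraction and normalization are not given in the sources used here, and some arrays share a lowest value over several probes, so dim values have no measured floor.

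Stages were read from the sample titles. Probe 357 was constant and left out. Intensities were transformed to log2 without offset or further normalization, since the 16 array medians spanned 0.185 on that scale. The linear model of limma 3.58.1 (R 4.3.3) took a mean for each stage from the 16 arrays together, with 12 residual degrees of freedom and moderated variances; the contrast was filamentous minus tubular, with two-sided p-values and Benjamini-Hochberg adjustment over 1014 probes at 0.05. Counts at unadjusted p under 0.05 are from the same fit, differences are on the log2 scale with SE and 95% interval, and means and SDs are of linear intensity. The script was tested on simulated data.

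Gene symbols came from the platform annotation: 676 probes had 1 symbol, 15 several and 324 none, and 668 of 674 Entrez identifiers were found in the RefSeq gene table. The table has several probes for 34 genes, for 20 of which all probes gave the same sign; the brightest represents the gene. Named genes were the 12 higher and 12 lower with the smallest p, up to 4 per list with the smallest p, and a set chosen for their known roles; APOE, SAT1, SMARCA4, MDH1, APOA2, SERPINA1, RXRB and the genes and unnamed probes of the closing section fall outside that rule and were picked after their values were seen. The members and lists were chosen with earlier results of these data known, and 6 lists were added after values were seen. Lists are described by counts and medians with no test. The alternatives tried were 3 normalizations (cyclic loess, quantile, and centring on array medians), a filter that drops the dimmest 25% of probes, adding 10 before the log, other sets of arrays, the replicate number as a block, array weights, another variance prior, removal of a trend along probe number, other probes of a gene, and leaving out each array. Sequences and coordinates were not used here.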

Additional observations from a re-analysis of the deposited data

Results flagged for a closer look

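Each value here stood apart from the other 3 arrays of its stage on the log2 scale, because the gap to the nearest of them, divided by the stage's range, was above Dixon's 95% critical value. Chance gives this in about 1 of 20 groups of 4, and over all 1014 probes it was met by 8.38% in the tubular and 4.83% in the filamentous stage.

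Among the 132 genes and probes checked, 9 values met this in the tubular and 10 in the filamentous stage. Filamentous array 1 held 7 of these 19 values. It was the highest of its stage for RPL36AL (394 against 173 to 195), CCT4 (237), ARID1A (26.2), HMGN2 (185) and the dim APOA1 probe 164 (10.8), and the lowest for TGFB3 (14.2 against 86.8 to 99.5) and PLAC1 (17.6). Tubular array 1 was the lowest for CKB (0.33 against 15.995 to 18.5), DDX1 (4.86) and APOA1 probe 164 (0.33), and the highest for PLAU (54.7) and the unnamed probe 199 (88.6).

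Of the other arrays, tubular array 3 read 2.32 for SAT1 against 108 to 123 on the other tubular arrays, and 122 for the unnamed probe 723. Tubular array 2 was the highest for IL2 (20.4) and the lowest for ITM2B (58.0). Filamentous array 2 was the lowest for CALM2 (197) and VCP (14.6), and filamentous array 4 the lowest for LONP2 (13.7 against 26.1 to 26.4).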

How the results depend on the processing

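Under all 19 alternatives, 0 probes passed an adjusted limma p of 0.05. The smallest adjusted p was 0.0991, for IL12B without tubular replicate 2. IL12B lay at the lowest value of tubular arrays 1, 3 and 4, the ones left in. The count at unadjusted p under 0.05 was 34, it was 52 with array weights, and it ran from 23 (without filamentous replicate 1) to 42 when each array was left out. The count of probes without overlap was 30, it was 111 on the 12 arrays numbered 2 to 4, and it ran from 46 to 76 when each array was left out, since fewer arrays overlap less often. The arrays numbered 1 stood apart in all 4 stages, at -16.3 to -8.17 on the first principal component of the 16 arrays against -4.25 to 9.40 for the other arrays. Deviations of tubular and filamentous arrays with the same number correlated at 0.270, 0.271 and 0.183 for numbers 1 to 3 and at -0.026 for number 4, so a pairing was not shown for every number, and the labels name none. With the replicate block, 0 probes passed, 47 had an unadjusted p under 0.05, and 32 of the 34 were among them. The 34 probes kept their sign under every alternative that measured them, and 15 kept an unadjusted p under 0.05 on the 12 arrays. They were picked by p from these same arrays, so a kept sign was likely from the start.

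Of 132 genes and probes followed, 104 kept their sign throughout, and the cause of the other changes of sign was not tested. On the 12 arrays numbered 2 to 4 the log2 difference turned to -0.0019 for ETF1, -0.18 for PECAM1, 0.062 for DYNLRB1, 0.25 for SLC25A33, 0.085 for SLC25A3, -0.25 for CCNA2, -0.044 for HMGN2, 0.55 for TGFB3, 0.17 for TMSB10, 0.0034 for IFNG and 0.25 for KRT8. With array weights it turned to -0.033 for PECAM1, 0.053 for DYNLRB1, 0.12 for TGFB3, 0.13 for TMSB10 and 0.070 for KRT8. It was 0.034 for KRT8 after quantile normalization and 0.0063 for TMSB4X with the trend along probe number removed. Another probe gave -0.043 for CCT4, 0.65 for HMGB1, -0.42 for SLC2A3 and 0.30 for IFNG.

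When each array was left out in turn, the log2 difference ran from -0.85 to 0.075 for VEGFA, -0.13 to 0.33 for PTGES, -0.032 to 0.38 for PLAC1, -0.071 to 0.17 for PECAM1, -0.59 to 0.89 for PGR, -0.0049 to 0.25 for ACTG1, -0.10 to 0.26 for STMN1, -0.046 to 0.17 for TUBA1A and -0.10 to 0.12 for DYNLRB1. It ran from -0.46 to 0.16 for SLC25A33, -0.29 to 0.076 for SLC25A3, -0.040 to 0.53 for CCNA2, -0.035 to 0.24 for CCNB2, -0.19 to 0.10 for TOP2A, -0.021 to 0.40 for HMGN2, -0.22 to 0.68 for CYP17A1, -0.45 to 0.49 for TGFB3 and -0.18 to 0.48 for SLC2A3. It ran from -0.090 to 0.15 for TMSB10, -0.26 to 0.043 for IFNG, -0.13 to 0.0083 for CYB5A, -0.25 to 0.12 for KRT8, -0.14 to 0.13 for TMSB4X, -0.077 to 0.26 for CYP11A1 and -0.20 to 0.051 for STAR. Of 26 list medians, 8 kept their sign throughout. The number of arrays limits precision, and dim probes have no measured floor.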

Other observations

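Genes of cholesterol synthesis, a list written after values were seen, had 4 of 4 positive differences and a median of 0.27, with 0 at unadjusted p under 0.05: CYP51 differed by 0.29 ± 0.16, FDFT1 by 0.31 ± 0.18, PMVK by 0.25 ± 0.22 and NSDHL by 0.10 ± 0.24. Of 6 aminoacyl-tRNA synthetases, likewise listed afterwards, 4 were higher and 2 lower, with AARS at 0.32 ± 0.15. Among 12 lysosomal genes, also listed afterwards, 5 were higher and 7 lower. LAMP2, a lysosomal membrane protein, read 304, 366, 296 and 377 on the tubular and 394, 636, 412 and 460.1 on the filamentous arrays without overlap (0.48 ± 0.34), and its other probe differed by 0.12 ± 0.26. NPC2, which moves cholesterol out of lysosomes, differed by 0.47 ± 0.25. A list of 17 plasma protein genes, also written after values were seen, had 7 higher and 10 lower members. Of these 4, TF, APOA1, AMBP and APOE, had an unadjusted p under 0.05, where 3.35% of all probes did. APOA1 and APOE read higher, TF and AMBP lower. In the added list for polyamines, 3 of 4 genes were higher, and ODC1, which makes putrescine, differed by 0.06 ± 0.22. The added retinoid list had 3 higher and 2 lower members of 5, with the retinoic acid hydroxylase CYP26A1 at 0.41 ± 0.55.

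Several probes without a gene symbol were among the 34 with an unadjusted p under 0.05. Probe 538 read 27.5, 14.2, 23.9 and 23.3 on the tubular and 41.6, 37.7, 54.1 and 38.9 on the filamentous arrays (0.98 ± 0.31). Its neighbours in the numbering, probes 539 and 540, differed by 0.76 ± 0.25 and 0.76 ± 0.23. Whether these 3 probes come from related transcripts was not tested. Probe 30 read 47.9, 33.0, 50.9 and 42.1 against 94.6, 72.3, 56.6 and 94.4 (0.86 ± 0.31). Probes 538, 540 and 30 had no overlap between the stages and kept an unadjusted p under 0.05 under every alternative in which they were measured. They were picked from these same arrays, which the alternatives reuse, so a kept p was likely from the start. Probe 748 ran the other way, at 397, 304, 312 and 358 against 127, 298, 299.7 and 195 (-0.65 ± 0.26), and was -0.39 without filamentous array 1.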
